A study of Homo sapiens with 4 samples.

Results

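The BAG family (BAG1 to BAG6), the small heat shock proteins HSPB1, HSPB8 and CRYAB and the ubiquitin ligase STUB1 (also called CHIP) were followed through the response of 2 human cancer cell lines to CPYPP, a small molecule inhibitor of the DOCK proteins that was used in the study as an inducer of paraptosis, a form of cell death with vacuoles in the cytoplasm. The 10 genes were chosen by symbol, and each matched 1 row of the 61806 genes in the count table. RNA with a poly(A) tail was sequenced from MDA-MB-231 cells, labelled as breast cancer cells, and from MDA-MB-435 cells, which carry the same label and are treated as melanoma cells in the study. For each line there was a control library and a library made after 10 µM CPYPP for 6 h, which gave 4 libraries with 1 library per condition and the genotype label WT throughout. The labels do not say what the control cells received, and the growth and treatment notes name MDA-MB-435 for every library, so the line was taken from each library's own cell line label.

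Most BAG proteins share a domain that binds the ATPase part of HSP70 and makes it release its nucleotide and its client. These members differ in the destination to which they bring that chaperone. BAG1 carries a ubiquitin-like domain and directs HSP70 clients to the proteasome, whereas BAG3 pairs HSP70 with HSPB8 and leads misfolded clients to autophagy through SQSTM1. The small heat shock proteins hold unfolded proteins in a soluble state without using ATP, and STUB1 attaches ubiquitin to clients held by HSP70 or HSP90.

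The libraries held between 17196385 and 22663954 counts on genes. With no replicate, each interval given with a fold change is a 95% exact binomial (Clopper-Pearson) interval for counting error only, and an exact binomial test between 2 libraries speaks of those libraries rather than of the conditions behind them. Pairs of values within a line are given as control, then CPYPP. A gene was called when it differed by over 2-fold at an adjusted p-value under 0.05. The melanocyte regulator SOX10 had 0 and 1 counts in the MDA-MB-231 libraries, compared with 3031 and 707 in MDA-MB-435 libraries, and the epithelial genes CDH1 and EPCAM had between 287 and 837 counts in MDA-MB-231 and between 0 and 2 in MDA-MB-435. DCT, a further melanocyte marker, had 1 and 3 counts in MDA-MB-231, against 658 and 464 in MDA-MB-435. KRT19 had 3953 and 2225 counts in MDA-MB-231, against 4 and 0 in MDA-MB-435. KRT8 had 12813 and 9549 counts in MDA-MB-231, against 522 and 310 in MDA-MB-435. Several other markers did not separate the lines in this way. MITF had 1585 and 690 counts in MDA-MB-231, against 1405 and 809 in MDA-MB-435, and PMEL, which had 34 and 29 against 13 and 4, was called lower in the MDA-MB-435 control. Of the 7 melanocyte markers, summed levels went from 71.2 to 44.0 CPM (counts scaled by the effective library size) in MDA-MB-231 and from 215 to 109 CPM in MDA-MB-435 after CPYPP. TYR, which defines pigment cells, had at most 3 counts in any library. The sums of the 7 breast and epithelial markers were 1154 and 1089 CPM in MDA-MB-231, against 271 and 243 CPM in MDA-MB-435. The estrogen receptor gene ESR1, with 2 and 9 counts in MDA-MB-231 but 24 and 20 in MDA-MB-435, was called higher in the MDA-MB-435 control, and KRT18 and GATA3 were not called between the controls. The part of these marker changes in the values that follow was not tested.

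BAG3 and HSPB8 were called higher after CPYPP in both lines, and BAG2 was called higher in MDA-MB-435 as well. None of the tested members was called lower in either line, where 2.87% of all tested genes were in MDA-MB-231, compared with 6.37% in MDA-MB-435. With so few members beside those shares, nothing is read from this. Genes called higher in both lines were 1.01% of those tested in both. In MDA-MB-231, 2 of 9 tested genes were called higher, where 3.89% of all 16441 tested genes were. In MDA-MB-435, 3 of 10 were called higher, where 3.03% of 16527 tested genes were. The median log2 fold change of the tested members was 0.31 in MDA-MB-231, against 0.59 in MDA-MB-435, beside -0.01 over all tested genes in each line. The other tested members stayed within 2-fold of their controls.

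**Figure D1:**
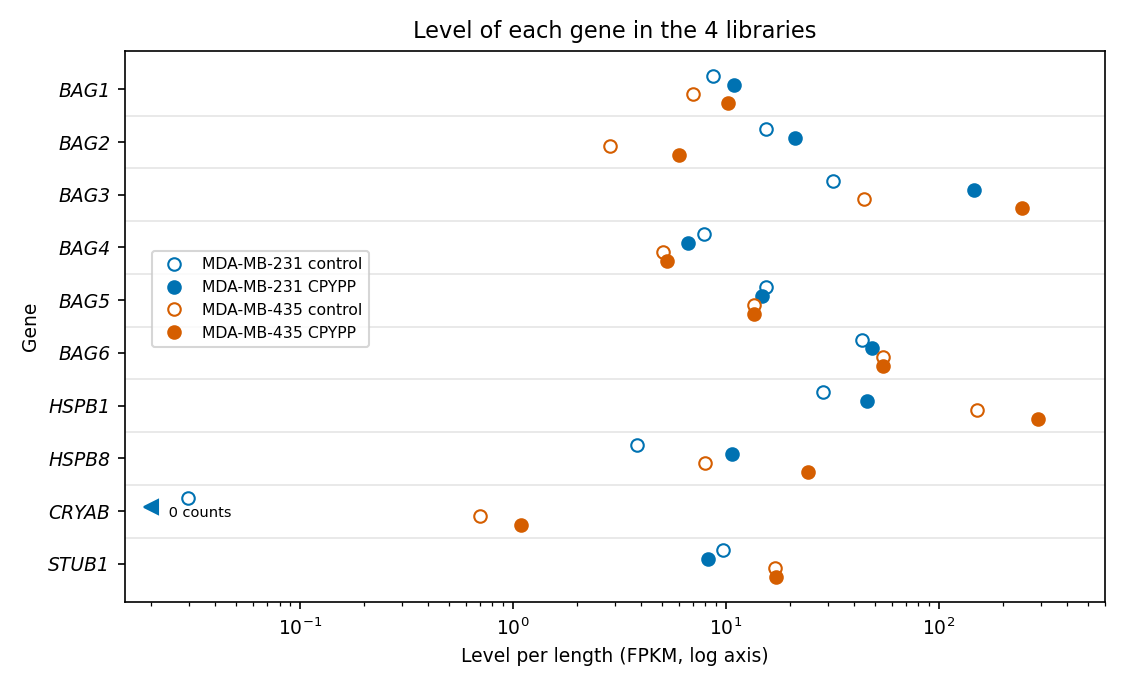
Level per length of the 10 genes in the 4 libraries, in FPKM on a log axis, with open circles for control libraries and filled circles for CPYPP libraries (blue MDA-MB-231, orange MDA-MB-435). A triangle marks 0 counts; BAG3 and HSPB8 lie to the right of their controls in both lines, and HSPB1 lies highest of all genes in MDA-MB-435.

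BAG3 (ENSG00000151929, chromosome 10, 119651380 to 119677819, GRCh38) encodes the stress-inducible member that works with HSPB8 in chaperone-assisted autophagy. Its reads numbered 1999 in control MDA-MB-231 cells and 6724 in CPYPP-treated ones. In MDA-MB-435 the counts were 2906 and 12415. Both CPYPP libraries lay above both control libraries, and the share of all genes with that order was not counted. Per length, the level went from 31.9 to 146 FPKM (CPM per kilobase of exon) in MDA-MB-231 and from 44.5 to 245 FPKM in MDA-MB-435. The rise was 4.59-fold (4.37 to 4.83) in MDA-MB-231, which placed BAG3 at rank 146 of 16441 genes by fold change. In MDA-MB-435 the rise was 5.51-fold (5.29 to 5.74), at rank 56 of 16527 genes. BAG3 was the member with the largest fold change in each line.

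HSPB8 (ENSG00000152137, chromosome 12, 119171555 to 119224855), the small heat shock protein that binds BAG3 directly, rose with it. In MDA-MB-231 the control cells gave 314 counts and the treated cells 638, and in MDA-MB-435 they gave 680 and 1602. The MDA-MB-435 control library lay slightly above the MDA-MB-231 CPYPP library in counts but below it per length and effective library size, at 7.96 FPKM against 10.6 FPKM. HSPB8 rose 2.77-fold (2.42 to 3.18; exact binomial test, adjusted p = 1.87e-51) in MDA-MB-231 and 3.04-fold (2.78 to 3.33; exact binomial test, adjusted p = 2.99e-142) in MDA-MB-435. An unnamed gene on the same strand within HSPB8 had between 2 and 24 counts.

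HSPB1 (ENSG00000106211, chromosome 7, 76302673 to 76304295) encodes HSP27, the widely expressed small heat shock protein that also binds actin filaments. In MDA-MB-231 it had 1066 counts without and 1256 with CPYPP, and in MDA-MB-435 5827 and 8714. Every MDA-MB-435 value lay above every MDA-MB-231 value. The share of all genes separated in this way was not counted, so nothing is read from it. It changed by a factor of 1.61 (1.48 to 1.75; exact binomial test, adjusted p = 8.47e-29) in MDA-MB-231 and 1.93 (1.87 to 1.99) in MDA-MB-435. HSPB1 therefore had more reads after CPYPP than counting error gives in each line, and it did not reach the 2-fold threshold in either.

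CRYAB (ENSG00000109846, chromosome 11, 111908564 to 111923722), the alpha-B crystallin of lens and muscle, was scarce. Without CPYPP it had 3 counts in MDA-MB-231, and with CPYPP 0, where a count of 0 allows up to 0.179 CPM, and it was not tested in that line. In MDA-MB-435 it had 73 and 88 counts, a fold change of 1.56 (1.13 to 2.15; exact binomial test, adjusted p = 0.0152) that was not called. CRYAB overlaps HSPB2, another small heat shock protein gene on the other strand, which had 0 counts in all 4 libraries. On that strand it also overlaps C11orf52 and HSPB2-C11orf52, both with 0 counts in all 4 libraries. The way reads in these overlaps were assigned was not tested. The remaining small heat shock protein genes looked at, HSPB3, HSPB6, HSPB7, HSPB9, CRYAA and ODF1, had at most 9 counts in any library. HSPB11, an intraflagellar transport protein named with the family, had 1060 and 699 counts in MDA-MB-231, compared with 502 and 419 in MDA-MB-435. Its fold changes of 0.900 (0.817 to 0.991) and 1.08 (0.943 to 1.23) were not called, and it was the 1 gene of these 8 with enough counts to be tested after CPYPP.

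BAG2 (ENSG00000112208, chromosome 6, 57172326 to 57189833) encodes a member that inhibits the ligase activity of STUB1. MDA-MB-231 gave 2340 counts without and 2365 with CPYPP. The counts of MDA-MB-435 were 451 and 738, so both lay far under those of MDA-MB-231. With the smaller CPYPP library taken into account, BAG2 changed by a factor of 1.38 (1.30 to 1.46) in MDA-MB-231 and 2.11 (1.88 to 2.38; exact binomial test, adjusted p = 9.45e-36) in MDA-MB-435. The interval of the called value spans the threshold of 2, and the call ended with total counts (1.903) and with upper quartile scaling (1.95). Scaling over the 4 libraries together gave 2.004 over filtered genes and 2.04 over all genes. BAG2 overlaps RAB23 on the other strand, which had between 619 and 1002 counts.

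BAG1 (ENSG00000107262, chromosome 9, 33247820 to 33264720), the proteasome-linked member, had 1412 and 1287 counts in MDA-MB-231, against 1186 and 1336 in MDA-MB-435. Its fold changes of 1.24 (1.15 to 1.34; exact binomial test, adjusted p = 1.15e-07) and 1.45 (1.34 to 1.57; exact binomial test, adjusted p = 8.64e-20) were above 1 by more than counting error and were not called. BAG1 overlaps SPINK4 on the other strand, which had 100 and 58 counts in MDA-MB-231 and 0 in both MDA-MB-435 libraries.

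BAG4, BAG5 and BAG6 stayed near their control levels in both lines. BAG4 (ENSG00000156735), which silences death receptors, had 871 and 537 counts in MDA-MB-231, compared with 582 and 471 in MDA-MB-435, with fold changes of 0.841 (0.754 to 0.938; exact binomial test, adjusted p = 0.00523) and 1.04 (0.922 to 1.18). BAG5 (ENSG00000166170, chromosome 14, 103556545 to 103562657), which carries several BAG domains, had 1799 and 1266 counts and then 1641 and 1279, with fold changes of 0.960 (0.893 to 1.03) and 1.005 (0.934 to 1.08). BAG6 (ENSG00000204463, chromosome 6, 31639028 to 31652705) handles membrane proteins that miss their insertion into the endoplasmic reticulum, and was the BAG gene with the most counts in both control libraries. It had 6277 and 5130 counts in MDA-MB-231, against 8213 and 6390 in MDA-MB-435, and its fold changes were 1.12 (1.08 to 1.16) and 1.003 (0.971 to 1.04). In MDA-MB-231 the interval of BAG4 lay under 1, that of BAG6 above 1 and that of BAG5 included 1. In MDA-MB-435 all of these intervals included 1, and the side of 1 on which BAG4, BAG5 and BAG6 fell there turned with total counts and upper quartile scaling, to between 0.905 and 0.967. BAG5 overlaps KLC1 on the other strand (1043 to 1254 counts) and BAG4 overlaps LSM1 (285 to 609 counts).

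STUB1 (ENSG00000103266, chromosome 16, 680224 to 682870), which links chaperone clients to ubiquitin, had 512 counts in control MDA-MB-231 cells and 321 in treated ones. In MDA-MB-435 it had 935 and 733 counts. The fold changes were 0.856 (0.742 to 0.986; exact binomial test, adjusted p = 0.0655) and 1.011 (0.917 to 1.12). Neither passed the test with the TMM scaling used here. The value in MDA-MB-231 did not pass with TMM over 4 libraries and filtered genes either (0.850, exact binomial test, adjusted p = 0.0526). In MDA-MB-231 STUB1 was at 0.815 (exact binomial test, adjusted p = 0.0116) with total counts, 0.828 (adjusted p = 0.0209 in the same exact test) with the upper quartile, 0.846 (exact, adjusted p = 0.0449) with DESeq2 size factors and 0.836 (exact, adjusted p = 0.03) with TMM over 4 libraries and all genes, and it stayed within 2-fold of control under each. The value in MDA-MB-435 was 0.912 with total counts and 0.936 with upper quartile scaling. STUB1 overlaps JMJD8 on the other strand, which had between 287 and 682 counts.

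**Figure D2:**
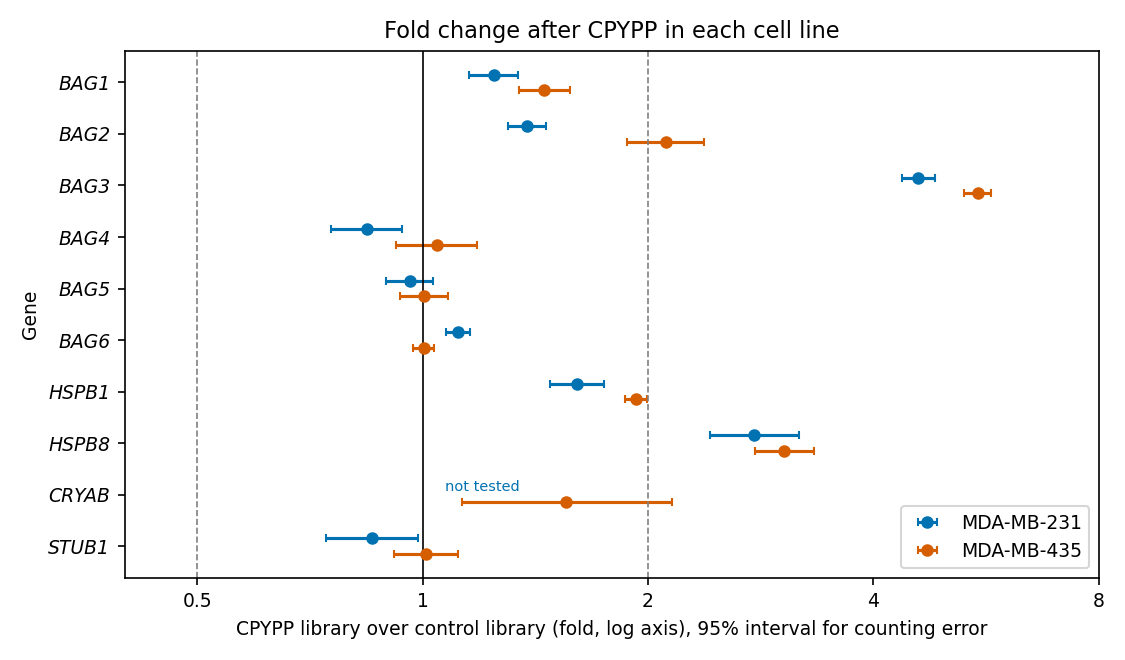
Fold change of the CPYPP library over the control library for each gene, on a log axis, in MDA-MB-231 (blue) and MDA-MB-435 (orange), with bars for the 95% exact interval of counting error and dashed lines at 0.5 and 2. BAG3 and HSPB8 lie to the right of the line at 2 with their whole interval in both lines, while the interval of BAG2 in MDA-MB-435 spans it.

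The make-up of the BAG family changed with the rise of BAG3. The summed level of the 6 BAG genes went from 123 to 248 FPKM in MDA-MB-231 and from 127 to 335 FPKM in MDA-MB-435. BAG3 made up 26.0% of that sum in control MDA-MB-231 cells and 59.0% in treated ones, and 34.9% and 73.2% in MDA-MB-435. BAG6 held the largest share in both control libraries, at 35.3% and 42.7%, and 19.5% and 16.3% after CPYPP. These shares use the exon length of all transcripts of a gene together, so they rest on the isoforms of each gene being used alike.

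**Figure D3:**
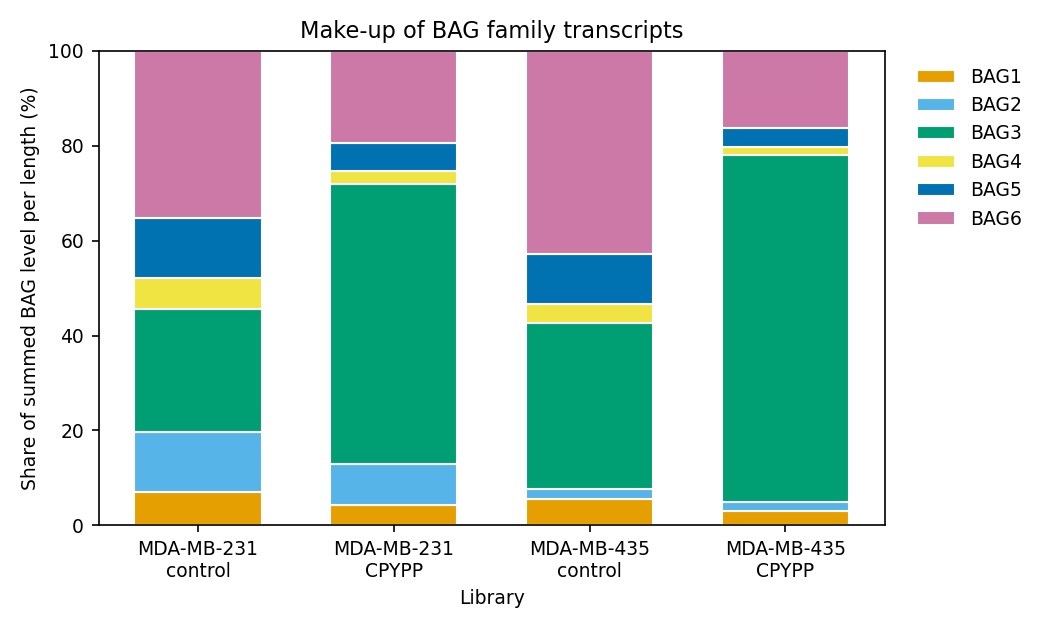
Share of each BAG gene in the summed BAG level per length (percent of FPKM) in the 4 libraries, stacked to 100%. The green part, BAG3, goes from 26.0% to 59.0% in MDA-MB-231 and from 34.9% to 73.2% in MDA-MB-435.

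Ratios of 2 genes within a library do not depend on the scaling between libraries. BAG3 relative to BAG1, the members linked to autophagy and to the proteasome, was 3.66 per length (3.42 to 3.92) in control MDA-MB-231 cells and 13.5 (12.7 to 14.3) after CPYPP, a change of 3.69-fold (3.37 to 4.04). In MDA-MB-435 this ratio was 6.33 (5.92 to 6.78) and 24.0 (22.7 to 25.4), a change of 3.79-fold (3.47 to 4.14). The intervals of these changes overlapped between the lines. BAG3 relative to BAG6, the most abundant BAG gene of the controls, was 0.736 and 3.03 per length in MDA-MB-231, against 0.817 and 4.49 in MDA-MB-435, and its change of 4.12-fold (3.87 to 4.38) and 5.49-fold (5.21 to 5.78) had intervals that did not overlap. BAG3 relative to HSPB8, its partner, was 8.33 and 13.8 per length in MDA-MB-231, compared with 5.59 and 10.1 in MDA-MB-435, so that BAG3 gained 1.66-fold (1.43 to 1.91) and 1.81-fold (1.64 to 2.001) on HSPB8. HSPB1 relative to HSPB8 was 7.49 and 4.34 per length in MDA-MB-231, against 18.9 and 12.0 in MDA-MB-435, with changes of 0.580 (0.495 to 0.679) and 0.635 (0.577 to 0.699). BAG3 relative to STUB1 went from 3.31 to 17.7 in MDA-MB-231 and from 2.63 to 14.3 in MDA-MB-435. The intervals of these changes were formed from the 4 counts on the log scale and cover counting error only.

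The control libraries show where the lines differed without CPYPP. Of the 10 members, 3 were called higher in MDA-MB-435 than in MDA-MB-231 and 1 lower, where 22% of all 18269 tested genes were called higher and 20.7% lower. HSPB1 was 5.10-fold higher (4.78 to 5.45) and HSPB8 2.02-fold higher (1.77 to 2.32; exact binomial test, adjusted p = 6.91e-26) in MDA-MB-435. For CRYAB the ratio was 22.7 (7.47 to 113), formed against 3 counts. BAG2 was at 0.180 (0.162 to 0.199) of its MDA-MB-231 level. The interval of HSPB8 spans the threshold of 2. BAG3 differed by 1.36-fold (1.28 to 1.44), BAG6 by 1.22 (1.18 to 1.26) and STUB1 by 1.70 (1.53 to 1.901), all higher in MDA-MB-435 and not called. BAG1 at 0.784 (0.725 to 0.847), BAG4 at 0.623 (0.560 to 0.693) and BAG5 at 0.851 (0.795 to 0.910) were lower there and not called.

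In order of level per length, BAG6, BAG3 and HSPB1 led in the MDA-MB-231 control library with 43.3, 31.9 and 28.7 FPKM. BAG5 (15.41 FPKM) and BAG2 (15.36 FPKM) followed. STUB1 (9.64 FPKM), BAG1 (8.72 FPKM), BAG4 (7.91 FPKM) and HSPB8 (3.83 FPKM) came next, with CRYAB last. In the MDA-MB-435 control library HSPB1 led with 150.4 FPKM, ahead of BAG6 (54.4 FPKM), BAG3 (44.5 FPKM), STUB1 (16.9 FPKM) and BAG5 (13.5 FPKM). After CPYPP, BAG3 took the first place in MDA-MB-231 and the second, behind HSPB1 at 290.1 FPKM, in MDA-MB-435. HSPB8 moved from place 9 to place 7 in MDA-MB-231 and from place 6 to place 4 in MDA-MB-435. The spread between cultures behind this order is not known.

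The fold changes of the lines were set against each other as a ratio, MDA-MB-435 over MDA-MB-231, with a normal interval on the log scale from the 4 counts. Among 9 members tested, 0 had a ratio over 2 in either direction, where 1.24% of 14262 genes were called with a larger and 3.71% with a smaller fold change in MDA-MB-435. At any ratio, 6 members passed an adjusted p of 0.05, beside 35.1% of all genes. The ratio was 1.53 (1.34 to 1.74) for BAG2, 1.20 (1.13 to 1.28) for BAG3 and 1.20 (1.10 to 1.31) for HSPB1. For BAG1 it was 1.17 (1.05 to 1.30), for BAG4 1.24 (1.06 to 1.46) and for BAG6 0.900 (0.856 to 0.945). HSPB8, at 1.10 (0.932 to 1.29), BAG5, at 1.05 (0.945 to 1.16), and STUB1, at 1.18 (0.997 to 1.40), did not pass. The ratio of each member moves with the scaling by the same factor, and BAG1 and BAG4 no longer passed with total counts (1.11 and 1.17), with the upper quartile (1.12 and 1.19) or with TMM over 4 libraries and filtered genes (1.12 and 1.19). BAG4 did not pass either when no filter on low counts was used. Without replicates such ratios cannot be set against the variation between cultures.

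Taken over both lines with the cell line as a block (edgeR quasi-likelihood test, 1 residual degree of freedom), 4 of 10 members were higher after CPYPP at an adjusted p under 0.05 and 0 lower, where 4.39% of 16801 tested genes were higher and 2.85% lower. The log2 fold change was 2.29 ± 0.12 (SE) for BAG3 (edgeR, adjusted p = 3.4e-06) and 1.496 ± 0.14 for HSPB8 (edgeR, adjusted p = 0.000243). HSPB1 at 0.78 ± 0.11 (edgeR, adjusted p = 0.00295) and BAG2 at 0.71 ± 0.15 (edgeR, adjusted p = 0.0172) also passed, since this test asks for no minimum fold change. BAG1 at 0.38 ± 0.12 did not (edgeR, adjusted p = 0.0963). BAG4, BAG5, BAG6, CRYAB and STUB1 lay between -0.14 and 0.29. Each SE is the size of the log2 fold change divided by the square root of the test's F value. The test pools variance over all tested genes, so the SE is not the spread of that gene alone between lines. Here the lines stand in for replicates, and without the block none of the members passed.

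The partners of BAG3 moved in both directions. Of 18 genes that work with BAG3, MDA-MB-231 had 2 called higher and 1 called lower, while MDA-MB-435 had 3 called in each direction among 17 tested, with median log2 fold changes of 0.35 and -0.07. Over all tested genes, 3.89% were called higher and 2.87% lower in MDA-MB-231, compared with 3.03% and 6.37% in MDA-MB-435, and the median was -0.01 in each line. HSPA8, the constitutive HSP70 that BAG3 binds, had 59764 and 92138 counts in MDA-MB-231, compared with 71001 and 138526 in MDA-MB-435, and was called higher in both. SQSTM1, the autophagy receptor that takes up BAG3 clients, had 7767 and 17543 counts and then 11261 and 23181, and rose 3.08-fold (3.001 to 3.17) and 2.66-fold (2.60 to 2.72). SYNPO, the actin-binding partner of the BAG3 WW domain, fell instead, with 675 and 174 counts in MDA-MB-231, against 960 and 302 in MDA-MB-435, to 0.352 (0.296 to 0.416) and 0.406 (0.355 to 0.462) of control. Its relative SYNPO2 was at 0.387 (0.162 to 0.836) in MDA-MB-435 on 30 and 9 counts, and had 7 and 13 counts in MDA-MB-231. AMOTL2, another ligand of that domain, was at 0.489 (0.465 to 0.514) of control in MDA-MB-435 and 0.789 (0.751 to 0.829) in MDA-MB-231, where it was not called. YWHAG, a 14-3-3 protein that links BAG3 to dynein, rose 2.19-fold (2.12 to 2.25) in MDA-MB-435 and had a fold change of 1.62 (1.57 to 1.67) in MDA-MB-231. FLNC, the filamin that is a client of BAG3 in muscle, had 10806 and 14136 counts in MDA-MB-231, compared with 0 and 2 in MDA-MB-435.

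Among 8 nucleotide exchange factors of HSP70 outside the BAG family, 2 were called higher in MDA-MB-231, against 3 in MDA-MB-435, and 0 lower, beside those same shares over all genes. HSPH1 (HSP110) had 6580 and 18033 counts in MDA-MB-231, compared with 12381 and 38381 in MDA-MB-435, fold changes of 3.74 (3.64 to 3.85) and 3.998 (3.92 to 4.08). HSPA4L rose 2.46-fold (2.32 to 2.60) and 2.79-fold (2.53 to 3.07). GRPEL2, a mitochondrial exchange factor, rose 2.92-fold (2.75 to 3.11) in MDA-MB-435 and had a fold change of 1.28 (1.17 to 1.40) in MDA-MB-231. The list's median log2 fold changes were 0.38 and 0.64. Of 7 partners of BAG6 and of 7 enzymes that work with STUB1, 0 were called in either line, from which nothing is read with so few genes beside those shares, and the medians of these lists lay between -0.15 and 0.36.

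**Figure D4:**
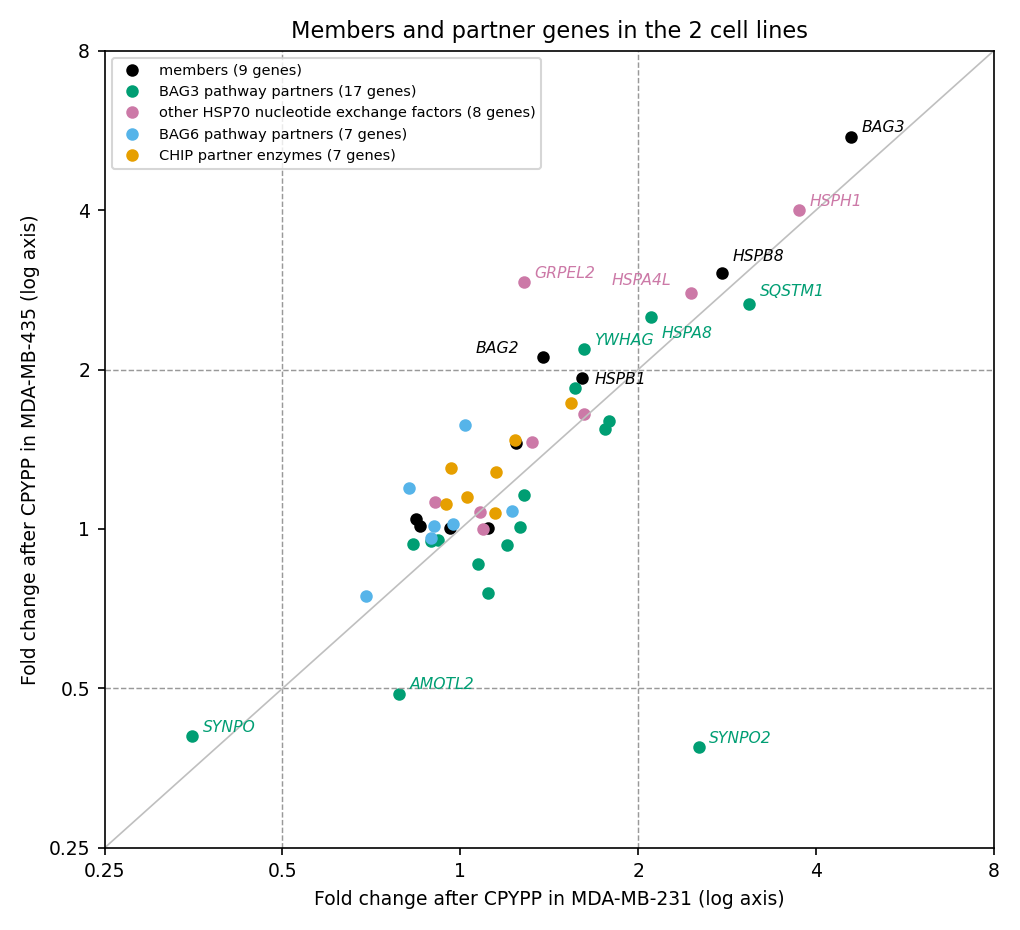
Fold change after CPYPP in MDA-MB-231 (x axis) and MDA-MB-435 (y axis), both on log axes, for the genes tested in both lines, coloured by list, with dashed lines at 0.5 and 2 and a grey line of equal change; names are given for genes called in at least 1 line and for HSPB1. BAG3, HSPH1, HSPB8, SQSTM1, HSPA4L and HSPA8 lie above 2 on both axes, and SYNPO lies under 0.5 on both.

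Over the 4 libraries, the genes whose levels followed a member most closely were found by the Euclidean distance of log2 CPM after centring each gene on its mean, among 10983 genes with a symbol and a mean of at least 5 CPM. The nearest to BAG3 were MIR100HG (distance 0.437), HSPH1 (0.481) and DEDD2 (0.513). Nearest to HSPB8 were KLHL21 (0.273), MOB3C (0.313) and CHORDC1 (0.443), a cochaperone of HSP90. HSPB1, which differed more between the lines than with CPYPP, had RHOB (0.305), TICAM1 (0.421) and ARID5A (0.428) as neighbours. With 4 libraries these distances describe the libraries, and many genes can share such a pattern. The CPM were scaled within each line's pair of libraries, so the part of a distance between lines depends on that scaling. HSPH1 stood at 1.806-fold between the controls there, against 1.755-fold when the controls were scaled together.

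The sequence before the start is shown for BAG3, HSPB8 and HSPB1, which passed the test over both lines. This choice rests on the same data, and BAG2, which also passed, is not shown. BAG3, HSPB8 and HSPB1 are known targets of heat shock factor HSF1, which binds repeated GAA units in alternating orientation. RefSeq promoter entries (GRCh38.p14, 250 bases before to 50 after the start) were searched for 7 of the 10 members, with 9 entries. BAG4 was left out of this search, and CRYAB and STUB1 had no entry. Capitals mark a pair of such units, searched as GAANNTTC or TTCNNGAA on both strands. The 250 bases before the start were taken from chr10:119651130-119651379 for BAG3, chr12:119178681-119178930 for HSPB8 and chr7:76302423-76302672 for HSPB1, all on the plus strand. The HSPB8 window lies inside the gene span given above, since the RefSeq start used here falls within that span.
BAG3: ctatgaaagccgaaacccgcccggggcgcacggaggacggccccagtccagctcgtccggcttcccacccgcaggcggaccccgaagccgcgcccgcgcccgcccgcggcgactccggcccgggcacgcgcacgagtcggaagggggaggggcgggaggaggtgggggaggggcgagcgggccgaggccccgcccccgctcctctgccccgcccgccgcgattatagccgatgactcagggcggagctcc
HSPB8: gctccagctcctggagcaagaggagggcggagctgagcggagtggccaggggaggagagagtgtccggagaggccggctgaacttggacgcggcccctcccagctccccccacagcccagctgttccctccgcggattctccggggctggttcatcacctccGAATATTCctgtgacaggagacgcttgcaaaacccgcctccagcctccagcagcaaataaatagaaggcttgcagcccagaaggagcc
HSPB1: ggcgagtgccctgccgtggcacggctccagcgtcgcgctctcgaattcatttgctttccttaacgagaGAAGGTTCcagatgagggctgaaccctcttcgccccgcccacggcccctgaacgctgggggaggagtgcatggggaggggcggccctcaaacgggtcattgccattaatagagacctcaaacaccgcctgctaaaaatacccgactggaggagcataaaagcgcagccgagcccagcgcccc
HSPB8 held such a pair 88 bases before the start and another that begins at base 5 after it, HSPB1 held a pair 182 bases before the start, and BAG2 a pair 124 bases before it. The windows of BAG1, BAG3, BAG5 and BAG6 held 0. A pair was found in 13.5% of all 35116 promoter entries. None of the 7 members held 3 units in a row (GAANNTTCNNGAA or TTCNNGAANNTTC), which contain the pair and were found in 0.49% of all entries. The core of the antioxidant response element (TGACNNNGC or its complement GCNNNGTCA) was found in HSPB1 alone, at 2 places after the start, and in 13.3% of all entries. A core shared by C/EBP and ATF factors (TGATGNAA or TTNCATCA, 3.62% of entries) and the letters TATAAA or TTTATA (11.5% of entries) were found in 0 of the 7. These matches describe letters in a short window, and no binding was measured.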

How the data were processed

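RNA was isolated with TRIzol, selected on oligo(dT) beads and primed at random. Per the labels, the authors' processing notes name cutadapt 1.9.1, HISAT2 2.2.1, HTSeq 0.6.1, DESeq2 and the build GRCh37.p13, while 99.9% of the 58254 identifiers shared with GENCODE v29 lay at their GRCh38 positions, so coordinates are given as GRCh38. The annotation version and strand setting are not given in the sources used here, so reads of genes overlapping on opposite strands cannot be told apart. Raw read counts per gene were deposited, without normalization, for 61806 genes, and 0 count columns lacked a sample. Depth per library was 17196385 to 22663954 counts. With 1 library per condition, intervals cover counting error only. PCR reads carry no molecular identifiers, and the part of PCR copies in the counts was not tested.

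The software was edgeR 4.0.16, limma 3.58.1 and DESeq2 1.42.0 under R 4.3.3, with figures from matplotlib 3.10.9 under Python 3.11.15. Pairs of libraries were compared by a two-sided exact binomial test on effective library sizes (TMM), with Benjamini-Hochberg adjustment over genes that reached 10 counts in either library, and counts of 3 or fewer set to 3 for a fold change. The common effect used edgeR's quasi-likelihood test after filterByExpr, with TMM over the 4 libraries and the cell line as a block (common dispersion 0.0146). CPM and FPKM used the TMM factors of each line's pair, and FPKM also the deposited exon lengths. The scripts were tested on simulated data. The members, gene lists and the rule for named genes (all members, list genes called in a line, and the 3 nearest patterns) were chosen with earlier results of these data known, and FLNC, the other small heat shock protein genes and the marker genes were named outside that rule, after their values were seen. The set of libraries behind TMM was also settled after results had been seen. Scaling over all 4 libraries was run first, over all genes and then over filtered genes. For the exact tests and the response ratios it was replaced by scaling over 2 libraries, those of the comparison or line. That is the set the exact test itself uses, and it follows an earlier analysis of these data. The common effect kept the scaling over 4 libraries and filtered genes. Alternatives were total counts, DESeq2 size factors, upper quartile, both scalings over 4 libraries, filters, assumed biological variation, DESeq2's Wald test and no block.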

Additional observations from a re-analysis of the deposited data

How the results depend on the processing

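The common effect pairs control and CPYPP within each cell line, and the labels give no replicate numbers for any further pairing. In MDA-MB-231, 1111 genes were called, and 709 with at least 10 counts in both libraries, 156 and 4 once a biological coefficient of variation of 0.2 or 0.4 was assumed, and 1780 by fold change with no test. In MDA-MB-435, 1552 genes were called, and 980, 271 and 14 under the filter and both coefficients. Between the controls 7795 genes were called, 4246 with the filter and 3050 at a coefficient of 0.4. At a coefficient of 0.1, the same members were called in each line. BAG1 no longer passed an adjusted p of 0.05 in either line (edgeR exact test, adjusted p = 0.439 and 0.0705). In that test BAG2, BAG4 and BAG6 in MDA-MB-231 (adjusted p = 0.164, 0.606 and 0.771) and CRYAB in MDA-MB-435 (adjusted p = 0.184) did not pass. HSPB1 still passed in both lines. At 0.2, 1 member (BAG3) was called in MDA-MB-231, and BAG2 lost its call in MDA-MB-435. At 0.4, 0 members were called after CPYPP in either line and HSPB8 lost its call between the controls, since an assumed variation widens the error of every gene. The common effect covered 1215 genes, 1930 with total counts, 2131 with DESeq2's Wald test, under which BAG1 passed too (adjusted p = 0.0121), and 1896 with at least 1 count in any library. Without the block, 0 genes and 0 members passed an adjusted p of 0.05 in edgeR, and 167 genes and 1 member passed at an unadjusted p of 0.05.

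Among the members, the fold changes that turned direction with the scaling were those near 1. In MDA-MB-435 the fold changes of BAG4, BAG5, BAG6 and STUB1 became 0.941, 0.906, 0.905 and 0.912 with total counts, and 0.967, 0.931, 0.929 and 0.936 with the upper quartile. With TMM over the 4 libraries and filtered genes, a setting used before the present one was settled, they became 0.991, 0.954, 0.953 and 0.960. Over all genes, the setting used first, BAG5, BAG6 and STUB1 became 0.970, 0.969 and 0.976. With total counts the response ratio of BAG5 became 0.991 and the common log2 fold change of BAG6 -0.0286. Total counts moved the median log2 fold change of all genes in MDA-MB-435 by -0.15 and the upper quartile by -0.11, and higher genes were then 20.01% and 22.7% of the calls, against 32.2%. BAG3 and HSPB8 were called higher in both lines under each scaling and filter, with BAG3 between 4.37 and 4.59 in MDA-MB-231 and between 4.97 and 5.53 in MDA-MB-435. When either line was left out of the common effect, the log2 fold changes of the members were those of the other line.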
